A study of Mus musculus with 4 samples.

Results

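The neuropeptide precursor genes of the sympathetic ganglion were examined in 4 RNA-seq libraries of mouse T1–T4 sympathetic ganglia (SG). The group held 9 genes, taken by name: Npy, Tac1, Gal, Vip, Sst, Adcyap1, Penk, Cartpt and Cck. They were matched by symbol to the Entrez gene identifiers of the deposited tables, which list 17667 genes in at least 1 library and 15275 in all 4. Of the 9 genes, 8 were listed in all 4 libraries and Cck was listed in none.

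The study asked how neurotrophin-3 (NT-3), a growth factor made in fat, and its receptor TRKC act on the sympathetic neurons that reach adipose tissue. All mice were C57BL/6, were 12 weeks old and had been kept at 5 °C for 1 day. WT_1 and WT_2 were wild-type. TRKC+/- mice were haploinsufficient for TRKC, and AdNTF3-Tg mice carried the NT-3 coding sequence under the adiponectin promoter, which drives it in adipocytes. Each library was made from the pooled ganglia of several mice, so every group was 1 library without replicates. Differences therefore have no replicate check, no p-value is given, and every interval below covers counting error only. The labels do not say which WT library belongs to which mutant (the names of the deposited tables set WT_1 beside TRKC+/- and WT_2 beside AdNTF3-Tg), so each mutant library was set against both.

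The libraries held 8665955 to 8894985 reads on genes. Reads of Ntrk3, which encodes TRKC, numbered 78 in WT_1, 91 in TRKC+/-, 83 in WT_2 and 76 in AdNTF3-Tg. The log2 ratio of the library labelled TRKC+/- was 0.15 to WT_1 (counting interval of the read ratio -0.27 to 0.64) and 0.11 to WT_2 (-0.32 to 0.57). Since the targeted gene was not lower there, that library is named in this way from here on; whole-gene counts do not separate the targeted part of the gene. The NT-3 gene Ntf3 was listed there only, with 2 reads, and was not listed in AdNTF3-Tg. Noradrenergic markers of the labelled tissue were high: Th, the rate-limiting enzyme of noradrenaline synthesis, lay at 2576 to 2753 FPKM and Dbh, which makes noradrenaline from dopamine, at 2100 to 2170 FPKM (fragments per kilobase of transcript, scaled to the mapped reads of the library). Reads of marker genes of other tissues differed between the libraries, and the amount of such tissue was not tested. Summed reads of 9 skeletal muscle genes were 1420 in WT_1, 637 in the library labelled TRKC+/-, 36.0 in WT_2 and 481 in AdNTF3-Tg. Summed reads of 7 brown adipocyte genes were 2786, 1491, 2554 and 2094 in the same order. Among them, Ucp1 had 655, 110, 672 and 525 reads, Fabp4 1260, 701, 1149 and 879, and Cidea 525, 423, 447 and 437.

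Neuropeptides are cut from larger precursors by prohormone convertases, stored in large dense-core vesicles and released together with the classical transmitter when a neuron fires strongly. Most sympathetic neurons are noradrenergic, and many of them hold neuropeptide Y, which constricts vessels and restrains transmitter release. A small cholinergic group makes vasoactive intestinal peptide. Galanin and PACAP rise in sympathetic neurons after injury, and substance P, the product of Tac1, is best known from sensory neurons whose fibres pass through the ganglia.

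Several of these genes are known targets of the cyclic AMP response element, so the sequence before the start of each was read from RefSeq promoters of the GRCm38.p6 build (250 bases, matched for 8 of the 9 genes). The 8-base palindrome TGACGTCA lay in 2 of the 8, Sst and Cartpt, against 1.55% of 32851 RefSeq promoter windows of the same length. Its shorter form TGACG, searched on both strands and contained in the palindrome, lay in 6 of the 8 against 17.8% of windows. These 8 leave out Penk, which was not matched, and take in Cck, which held TGACG but was listed in no library. The counts are of genes and the shares of windows, and Adcyap1 had 2 windows. The window of Tac1, the gene with the widest spread among those with more than 30 reads in every library, is chr6:7554811-7555060 on the + strand, directly before the annotated gene. It is shown in full, 5′ to 3′, with both TGACG matches, here on the opposite strand, in capitals.
Tac1: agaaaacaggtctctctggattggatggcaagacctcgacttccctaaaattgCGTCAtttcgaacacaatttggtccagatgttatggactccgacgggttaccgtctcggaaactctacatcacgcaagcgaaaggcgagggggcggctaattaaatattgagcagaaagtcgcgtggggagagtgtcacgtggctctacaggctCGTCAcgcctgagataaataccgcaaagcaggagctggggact

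Stretches of 30 bases around the match, again in capitals, are given for 4 further genes to show how the sites differ. They lie in the windows chr16:23890845-23891094 (- strand) for Sst, chr13:99900684-99900933 (- strand) for Cartpt, chr10:5638968-5639217 (+ strand) for Vip and chr17:93198767-93199016 (+ strand) for Adcyap1. These windows lie at least in part inside the annotated span of the gene. The match begins 48 bases before the start in Sst, 112 in Cartpt, 79 in Vip and 91 in Adcyap1.
Sst: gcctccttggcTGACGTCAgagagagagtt
Cartpt: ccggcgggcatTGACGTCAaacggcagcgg
Vip: gggatcactactgTGACGtctttcggggag
Adcyap1: gggactaggatgcTGACGtcttttactgat
These matches describe the letters in the window, and the windows of Npy and Gal held neither form.

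The 8 listed genes spanned more than 3 orders of level, and their order by mean FPKM was Npy, Gal, Adcyap1, Vip, Cartpt, Sst, Tac1 and Penk. Together they took 0.233% of all reads in WT_1, 0.229% in the library labelled TRKC+/-, 0.224% in WT_2 and 0.203% in AdNTF3-Tg. Npy (Entrez 109648, chromosome 6, 49822710 to 49829507) ranked 3rd to 6th among all genes of a library by FPKM, Gal (14419, chromosome 19, 3409915 to 3414544) 27th to 30th, and Tac1 6085th to 9688th. Mean levels were 2526 FPKM for Npy, 871 for Gal, 136 for Adcyap1 and 67.9 for Vip. Cartpt averaged 15.5 FPKM, Sst 10.4, Tac1 8.37 and Penk 1.07, so the last genes rest on few reads.

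**Figure D1:**
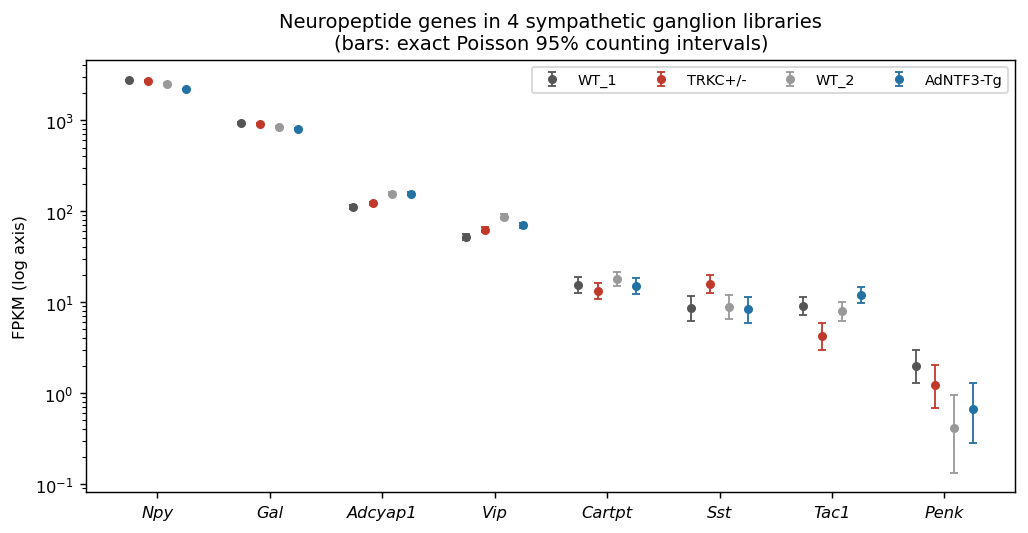
FPKM of the 8 listed neuropeptide genes (log axis) in each of the 4 libraries, with exact Poisson 95% counting intervals as bars. Npy lies at 2181 to 2733 FPKM and Penk at 0.41 to 1.99; in Tac1 the library labelled TRKC+/- lies below the bars of the other 3, and in Sst above them.

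A log2 ratio of FPKM between 2 libraries, with 0.1 FPKM added to each value, was read as past the cutoff at an absolute value of 0.5, the cutoff of the study's methods. Between the library labelled TRKC+/- and WT_1, 3 of the 8 genes were past it (Sst up, Tac1 and Penk down) beside 10.7% of the 15275 genes. Against WT_2 the same 3 genes were past it, with Penk now higher, beside 12.7%. AdNTF3-Tg differed from WT_2 in 2 genes (Tac1 and Penk, both higher) beside 13.3%, and from WT_1 in 1 (Penk, lower) beside 13.9%. The 2 WT libraries differed from each other in 2 of the 8 (in WT_1 Vip was lower and Penk higher) beside 13.4%, as many as separated AdNTF3-Tg from WT_2. AdNTF3-Tg against the library labelled TRKC+/- gave 3 (Tac1 higher, Sst and Penk lower) beside 13.1%.

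Past the cutoff in 1 direction against both WT libraries were 2 of the 8 in the library labelled TRKC+/-, with Tac1 down and Sst up, beside 4.27% of all genes. In AdNTF3-Tg there were 0 of the 8, beside 5.70% of all genes. Low genes pass more often than high ones: where the mean FPKM had to reach 1, which 12752 genes and all 8 of these did, the share past the cutoff was 4.89% to 7.83% over the 6 pairs of libraries, and 1.64% (library labelled TRKC+/-) and 2.60% (AdNTF3-Tg) were beyond both WT libraries. The median log2 ratio of the 8 genes was -0.03 and -0.13 for the library labelled TRKC+/- (against WT_1 and WT_2), and -0.04 and -0.09 for AdNTF3-Tg, where the median of all genes lay at 0.00. With 8 genes picked by name and 1 library a group, these counts describe the libraries and carry no test.

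**Figure D2:**
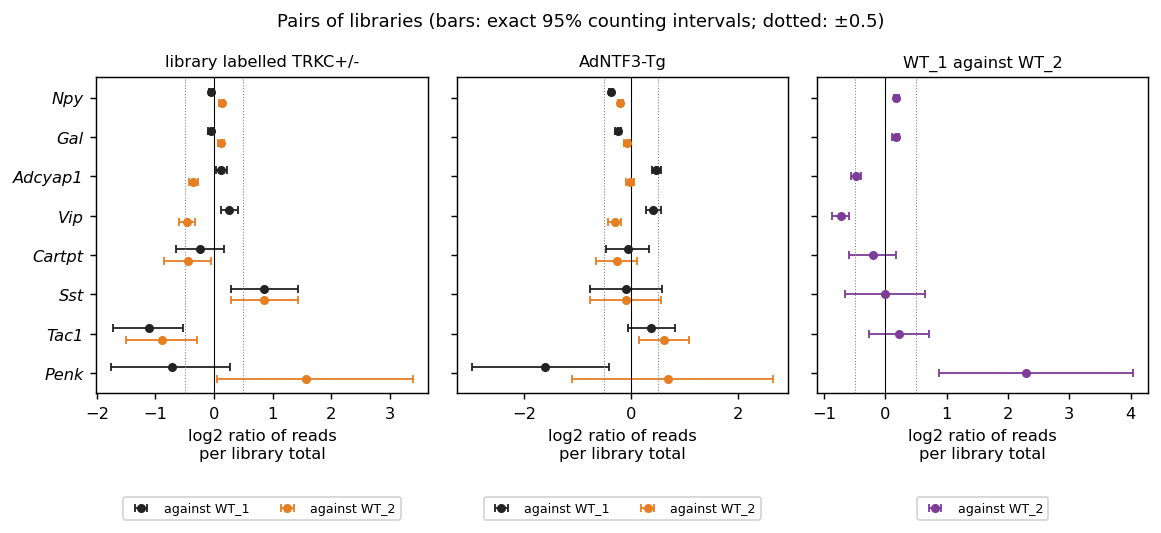
Log2 ratios of reads per library total for the 8 genes, with exact 95% counting intervals as bars and the cutoff of 0.5 dotted. The left and middle panels set the mutant libraries against WT_1 (black) and WT_2 (orange), the right panel WT_1 against WT_2. In the left panel both Tac1 intervals lie below 0 and both Sst intervals above it, while Penk changes side with the WT library.

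**Figure D3:**
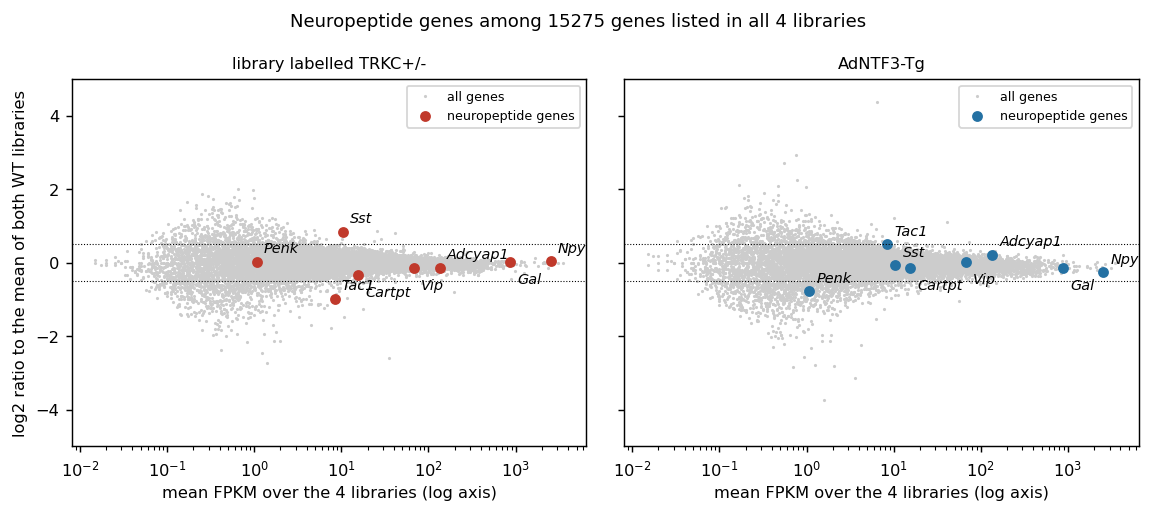
Log2 ratio of FPKM to the mean of both WT libraries (vertical) against mean FPKM over the 4 libraries (log axis) for 15275 genes in grey, with the 8 neuropeptide genes in colour and the cutoff of 0.5 dotted. The grey cloud widens towards low FPKM; Tac1 and Sst of the library labelled TRKC+/- lie outside the dotted lines and Npy, Gal, Vip and Adcyap1 inside them in both panels.

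Tac1 (Entrez 21333, chromosome 6, 7555061 to 7562978) encodes the precursor of substance P and neurokinin A. It had 78 reads in WT_1, 37 in the library labelled TRKC+/-, 68 in WT_2 and 103 in AdNTF3-Tg, which are 9.14, 4.27, 7.95 and 12.1 FPKM. The library labelled TRKC+/- was the lowest and AdNTF3-Tg the highest, 2.84-fold apart, with the WT libraries between them. The log2 ratio of the library labelled TRKC+/- was -1.08 to WT_1 (counting interval of the read ratio -1.72 to -0.53) and -0.88 to WT_2 (-1.50 to -0.29). AdNTF3-Tg stood at 0.60 to WT_2 (0.15 to 1.07), past the cutoff. To WT_1 it stood at 0.40 (-0.06 to 0.82), under the cutoff and with an interval that includes 0, so whether Tac1 passed in AdNTF3-Tg turned on the WT library used. The WT libraries lay 0.20 apart (-0.26 to 0.72), within counting error. In the order of levels, AdNTF3-Tg and WT_1 were not separated beyond counting error, nor were WT_1 and WT_2, while WT_2 and the library labelled TRKC+/- were.

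Some genes of sensory neurons, though a minority of the list, ran in the order of Tac1. Calca, the precursor of CGRP that sensory neurons release with substance P, had 35 reads in WT_1, 23 in the library labelled TRKC+/-, 26 in WT_2 and 52 in AdNTF3-Tg. Scn10a, a sodium channel of nociceptors chosen here after its values were seen, had 27, 10, 25 and 39 reads. Both were lowest in the library labelled TRKC+/- and highest in AdNTF3-Tg. For Scn10a the library labelled TRKC+/- was past the cutoff against both WT libraries (-1.08 and -0.95). For Calca it was past the cutoff against WT_1 alone (-0.59, and -0.18 against WT_2), and neither ratio was beyond counting error. Scn11a, a related channel chosen in the same way, had 30, 18, 49 and 29 reads. It was lowest in the library labelled TRKC+/- as well (-0.64 to WT_1, within counting error, and -1.24 to WT_2), but highest in WT_2. For Scn11a, AdNTF3-Tg stood at -0.06 to WT_1 and -0.66 to WT_2.

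Of the 20 genes in the sensory list, 13 were listed in all 4 libraries. Of these, 4 (Calca, Scn10a, Avil and Prdm12) had AdNTF3-Tg highest and the library labelled TRKC+/- lowest in FPKM. That order held for 8.17% of all 15275 genes, and Prdm12 had only 4, 3, 6 and 9 reads. Beyond both WT libraries were 2 of the 13 in the library labelled TRKC+/-, both lower (Scn10a and Scn11a), beside 4.27% of all genes. In AdNTF3-Tg there was 1, Calca, beside 5.70%. Against WT_1, the Scn11a and the Calca difference were each within counting error. Avil, an actin-binding protein that sympathetic neurons also express, lay at 195 to 207 FPKM. Of the markers more particular to nociceptors, Trpm8 was listed in none of the libraries. Mrgprd had 1, 0, 4 and 8 reads and Trpa1 1, 0, 3 and 8. Other members of the list went otherwise: Trpv1, the capsaicin receptor, had 7, 10, 3 and 10 reads, Calcb 10, 11, 7 and 8, P2rx3 27, 29, 39 and 39, and Piezo2 62, 79, 75 and 93. Against WT_2, Trpv1 and Calcb were past the cutoff upwards in the library labelled TRKC+/- (1.22 and 0.58), on intervals that include 0. Pvalb, of proprioceptors but also of muscle fibres, had 40, 16, 0 and 8 reads, in the order of the muscle genes. The part of sensory neurons or their fibres in the Tac1 values was not tested. In bulk RNA, fewer cells of a type and less RNA per cell cannot be told apart.

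**Figure D4:**
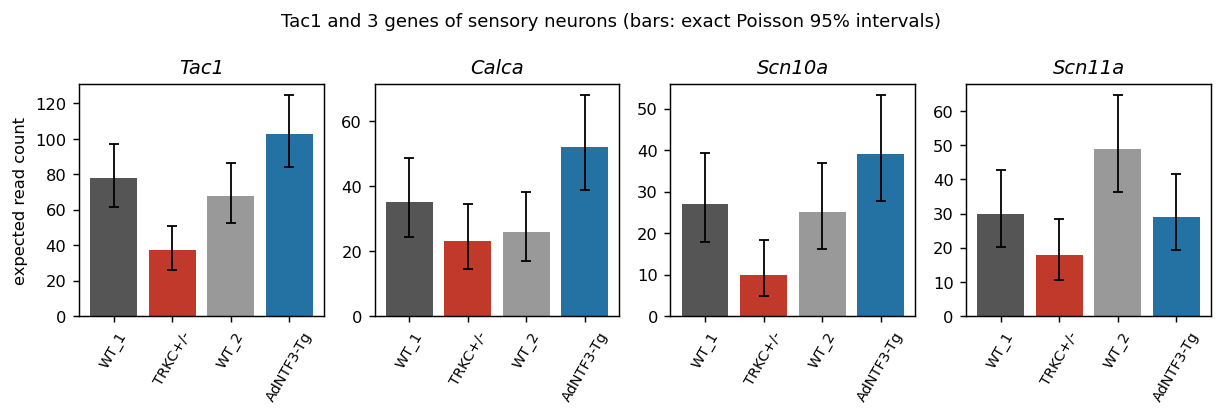
Expected read counts of Tac1, Calca, Scn10a and Scn11a in the 4 libraries. Error bars are exact Poisson 95% intervals, and axes start at 0. Scn10a and Scn11a were chosen after their values were seen. Trpv1, Calcb, P2rx3 and Piezo2 of the same list, not drawn, were not lowest in the library labelled TRKC+/-. Tac1, Calca and Scn10a are lowest in the library labelled TRKC+/- (37, 23 and 10 reads) and highest in AdNTF3-Tg (103, 52 and 39), whereas Scn11a is lowest in the library labelled TRKC+/- (18) and highest in WT_2 (49).

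The genes whose profile over the 4 libraries lay nearest to that of Tac1, by Euclidean distance of centred log2 FPKM among 11364 genes averaging 50 reads or more, were Lmbrd2 (0.43), Arl5b (0.43), Cbl (0.45), 2700070H01Rik (0.47) and Fbp2 (0.54). Lmbrd2 lay at 5.26, 2.74, 4.05 and 5.22 FPKM, and Cbl, a ubiquitin ligase, at 3.29, 1.90, 2.34 and 3.87. No other neuropeptide gene was among these 5, but Sst and Penk averaged fewer than 50 reads and were not compared. With 4 libraries the distance describes likeness and nothing further.

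Sst (Entrez 20604, chromosome 16, 23889573 to 23891342) encodes somatostatin, an inhibitory peptide. It had 41 reads in WT_1, 76 in the library labelled TRKC+/-, 42 in WT_2 and 39 in AdNTF3-Tg, or 8.62, 15.9, 8.94 and 8.36 FPKM. The library labelled TRKC+/- stood alone, and the other 3 lay within counting error of each other. Its log2 ratio was 0.87 to WT_1 (0.29 to 1.44) and 0.82 to WT_2 (0.29 to 1.43). AdNTF3-Tg stood at -0.04 to WT_1 (-0.77 to 0.57) and -0.10 to WT_2 (-0.77 to 0.56), intervals that leave room for a change of the size of the cutoff either way. Tac1 and Sst thus differed from both WT libraries in opposite directions in the same library.

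Npy and Gal, the abundant peptides of noradrenergic neurons, differed little. Npy had 12097 reads in WT_1, 11988 in the library labelled TRKC+/-, 10906 in WT_2 and 9451 in AdNTF3-Tg, which came to FPKM values in like order (2733, 2690, 2501 and 2181). Gal, which encodes galanin, had 5211, 5153, 4723 and 4458 reads (926, 906, 846 and 803 FPKM). AdNTF3-Tg was the lowest library for both. Its log2 ratio of Npy was -0.33 to WT_1 and -0.20 to WT_2, and that of Gal -0.21 and -0.07. All of these lay under the cutoff, although their counting intervals exclude 0. The WT libraries themselves were 0.13 apart for either gene. Both transcripts are short (561 and 699 bases), and for them the ratio of reads per library total departed from the ratio of FPKM by up to 0.05 and 0.04 on the log2 scale. On the scale of reads, Npy in AdNTF3-Tg stood at -0.38 to WT_1 (-0.42 to -0.34). Summed FPKM of 8 general neuron markers was also lowest in AdNTF3-Tg (6481, 6555, 6533 and 6209 in the order of libraries above). By FPKM 5 of the 8 were lowest in AdNTF3-Tg, as were 27.3% of all genes. Uchl1, a neuronal ubiquitin hydrolase and the highest of them, lay at 2162, 2119, 2081 and 1951 FPKM, whereas Elavl4 was highest there (38.1, 42.4, 44.5 and 45.6) and Snap25 was lowest in WT_1 (787, 873, 871 and 861). The part of neuron content in the Npy and Gal values was not tested.

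Adcyap1 and Vip encode the related peptides PACAP and VIP, and for both the WT libraries lay further apart than either mutant lay from at least 1 of them. Adcyap1 (Entrez 11516, chromosome 17, 93198245 to 93206541) had 1981 reads in WT_1, 2221 in the library labelled TRKC+/-, 2821 in WT_2 and 2778 in AdNTF3-Tg, or 111, 122, 156 and 155 FPKM. WT_2 and AdNTF3-Tg did not differ beyond counting error (-0.01, interval -0.09 to 0.06), and WT_1 stood at -0.49 to WT_2 (-0.56 to -0.40), just under the cutoff. With log2 ratios centred on their median, or with TMM scaling of the counts, it passed narrowly (-0.50 in both), which makes 3 genes past the cutoff between the WT libraries. AdNTF3-Tg was 0.48 above WT_1, and the library labelled TRKC+/- stood at 0.13 to WT_1 but -0.36 to WT_2.

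Vip (Entrez 22353, chromosome 10, 5639193 to 5647617) had 665, 819, 1122 and 901 reads, or 51.9, 62.7, 86.8 and 70.1 FPKM (libraries ordered as for Adcyap1). Both mutant libraries lay between the WT libraries, which were past the cutoff from each other (WT_1 to WT_2 -0.74, interval -0.87 to -0.59). Against WT_1 the mutants read as higher (0.27 for the library labelled TRKC+/- and 0.43 for AdNTF3-Tg) and against WT_2 as lower (-0.47 and -0.31), so neither has a direction that both WT libraries share. Among markers of cholinergic sympathetic neurons, Slc5a7, the choline transporter chosen here after its values were seen, had 70, 94, 121 and 144 reads and was also lowest in WT_1. Ret, a receptor tyrosine kinase, lay at 41.1, 43.5, 46.7 and 45.6 FPKM and ran in the order of Vip. Ache (236 to 255 FPKM), Gfra2 (25.4 to 32.0) and Tbx20 (21.5 to 23.6) did not. Of the 8 cholinergic genes listed in all 4 libraries, 2 were past the cutoff between the WT libraries, beside 13.4% of all genes. They were Slc5a7 and Chat (10, 23, 20 and 20 reads), both lower in WT_1. Slc18a3, of the same list, was near level at 90, 87, 96 and 89 reads. The part of the share of cholinergic neurons was not tested.

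Cartpt, Penk and Cck remain, of which Cartpt lay between Vip and Sst, Penk was the lowest listed gene and Cck was unlisted. Cartpt (Entrez 27220, chromosome 13, 99898483 to 99910179), which encodes the peptide CART, had 107 reads in WT_1, 93 in the library labelled TRKC+/-, 126 in WT_2 and 104 in AdNTF3-Tg (15.5, 13.3, 18.1 and 15.2 FPKM). It was not past the cutoff in any of the 6 pairs of libraries, and its counting interval excluded 0 in 1 of them, the library labelled TRKC+/- against WT_2 (-0.45, interval -0.85 to -0.05). Penk (Entrez 18619, chromosome 4, 4133536 to 4138815), the enkephalin precursor, had 24, 15, 5 and 8 reads. It was past the cutoff in all 6 pairs, yet its interval excluded 0 in only 3, among them WT_1 against WT_2 (2.03 by FPKM, interval of the read ratio 0.87 to 4.04). Its sign changed with the WT library for both mutants: the library labelled TRKC+/- stood at -0.66 to WT_1 and 1.37 to WT_2, and AdNTF3-Tg at -1.46 and 0.58.

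Muscle markers moved with Penk, and fibroblast markers in part. Acta1 of skeletal muscle had 262, 129, 14 and 97 reads, which puts WT_1 first and WT_2 last as for Penk. All 9 muscle genes were highest in WT_1 and lowest in WT_2 by FPKM, as were 8.86% of all 15275 genes, and 7 of them kept the whole order of Penk, as did 4.79%. The order of Penk itself is not resolved, since none of its neighbouring libraries differed beyond counting error. Of 10 fibroblast genes, 8 were lowest in WT_2 (25.8% of all genes) but 8 were highest in the library labelled TRKC+/- (23.4%), and 1 kept the order of Penk. Their summed reads were 8681, 8942, 6938 and 7776, and their summed FPKM, carried by Dcn at 146 to 200, was 362, 343, 279 and 311. Pnmt, the defining enzyme of adrenal chromaffin cells, which are rich in enkephalin, was listed in none of the libraries. The part of muscle or connective tissue in the Penk values was not tested. Cck (Entrez 12424, chromosome 9, 121489824 to 121495694), the cholecystokinin precursor, was not listed, and a count of 0 allows up to 3 reads in a library as a one-sided limit, or 3.69 by the two-sided Poisson interval used for the other genes.

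Peptides act on G protein-coupled receptors, and 23 of the 24 receptor genes of these peptides were listed in at least 1 library, 13 in all 4. Npy6r was listed in none. Adcyap1r1, the receptor selective for PACAP, was the highest at 40.7, 42.5, 40.4 and 42.3 FPKM and was level, although its ligand gene Adcyap1 was not. Cckar, a cholecystokinin receptor, lay at 10.7 to 12.0 FPKM with its own ligand gene unlisted, and Oprd1, the delta opioid receptor at which enkephalins act, at 4.93 to 5.71 FPKM.

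Npy1r, a receptor of neuropeptide Y, lay at 3.01 FPKM in WT_1, 4.76 in the library labelled TRKC+/-, 3.32 in WT_2 and 4.01 in AdNTF3-Tg. The library labelled TRKC+/- was the highest and was past the cutoff against both WT libraries (0.64 and 0.51). Its counts (77.2, 125, 86.6 and 104) are whole in the library labelled TRKC+/- and fractional in the other 3, where some reads were thus divided between genes. Npy5r went the other way in that library, on 15, 5, 9 and 12 reads (-1.30 and -0.65, the second with an interval that includes 0). In AdNTF3-Tg, Oprk1, the kappa opioid receptor, was the highest of the libraries with 46, 36, 32 and 70 reads (1.14, 0.87, 0.78 and 1.72 FPKM) and stood at 0.55 to WT_1 (0.03 to 1.15) and 1.05 to WT_2.

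Npy4r (0.99 to 1.61 FPKM), Galr2 (1.20 to 1.44) and Sstr2 (0.98 to 2.06) had 9 to 26 reads a library. Npy2r had 4 to 12 reads, Tacr3 4 to 9, Tacr1, the receptor of substance P, 5 to 9, and Vipr1 1 to 5. The 10 receptor genes that were listed in some libraries only (Tacr2, Galr1, Galr3, Vipr2, Sstr1, Sstr3, Sstr4, Sstr5, Oprm1 and Cckbr) had at most 5 reads in any. Of the 13, the library labelled TRKC+/- had 1 higher and 1 lower than both WT libraries past the cutoff, Npy1r and Npy5r, beside 4.27% of all genes, and AdNTF3-Tg had 2 higher, Oprk1 and Vipr1, beside 5.70%. The median log2 ratio of the 13 in AdNTF3-Tg was 0.25 to WT_1 and 0.24 to WT_2, where that of all genes was 0.00, but 4 of the 13 rest on fewer than 15 reads in every library.

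**Figure D5:**
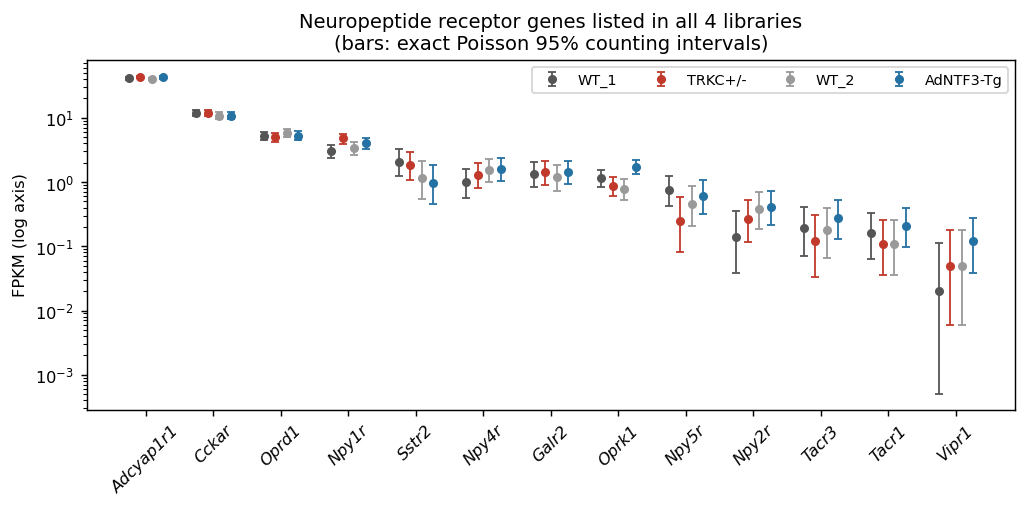
FPKM (log axis) of the 13 receptor genes listed in all 4 libraries, with exact Poisson 95% counting intervals as bars. Adcyap1r1 is highest and level at 40.4 to 42.5 FPKM, Npy1r is highest in the library labelled TRKC+/- (4.76), Oprk1 is highest in AdNTF3-Tg (1.72), and the bars widen towards Vipr1.

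The enzymes that turn precursors into peptides, and their regulators, differed in few members. All 15 processing genes were listed in the 4 libraries. Pam, which amidates the C-terminus of neuropeptide Y, VIP, PACAP and substance P, lay at 348 to 359 FPKM. Pcsk1n, an inhibitor of the convertase PC1, lay at 257 to 323 FPKM and was highest in the library labelled TRKC+/-, and Cpe, which trims basic residues, lay at 235 to 246 FPKM. Of the 15, 0 were beyond both WT libraries in the library labelled TRKC+/- (4.27% of all genes) and 1 was in AdNTF3-Tg (5.70%), a share near that of all genes. It was Qpct, the glutaminyl cyclase, which had 64, 65, 75 and 108 reads and stood at 0.73 to WT_1 (0.27 to 1.20) and 0.52 to WT_2. The 9 genes of granins and dense-core vesicle proteins had 0 members past the cutoff in any of the 6 pairs, where 10.7% to 13.9% of all genes were. Scg2, the most abundant, lay at 644 to 672 FPKM, Scg3 at 448 to 523 and Ptprn at 308 to 349.

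Of 45 other neuropeptide genes, 30 were listed in at least 1 library and 20 in all 4. Ghrh, the precursor of growth hormone-releasing hormone, was the highest of them with 91 reads in WT_1, 64 in the library labelled TRKC+/-, 89 in WT_2 and 74 in AdNTF3-Tg (21.7, 15.2, 21.6 and 18.1 FPKM). It was past the cutoff against both WT libraries in the library labelled TRKC+/- by a narrow margin (-0.51 to each). Nmu, the neuromedin U precursor, lay at 18.4, 15.4, 15.5 and 23.9 FPKM and Adm, the adrenomedullin precursor, at 15.3, 17.7, 13.8 and 16.5. Past the cutoff against both WT libraries, the library labelled TRKC+/- had 3 of the 20 higher and 3 lower (4.27% of all genes in either direction), and AdNTF3-Tg had 2 higher and 2 lower (5.70% of all genes). Apart from Ghrh and Calca, these genes rest on means below 20 reads. Of the 12 noradrenergic genes, 0 were beyond both WT libraries in either mutant library, beside the same 4.27% and 5.70%. Ddc, which makes dopamine, lay at 690 to 749 FPKM and Slc6a2, the noradrenaline transporter, at 667 to 716.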

How the data were processed

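RNA of pooled T1–T4 ganglia was selected with oligo(dT), fragmented and sequenced as single-end reads by a commercial provider for the authors. The deposited table of each library gives, per Entrez gene, an expected count and an FPKM value; genes without reads are not listed. The authors' methods name the mm9 assembly, SOAPnuke, HISAT2 and RPKM, and the submitters' processing notes name RSEM and mm10; which of them made the deposited tables was not settled. The FPKM values deposited by the authors scale reads by transcript length and library size. The tables hold no coordinates, and gene positions are those of RefSeq on GRCm38.p6. Strand use in counting is not given in the sources used here. Of 17667 identifiers, 17619 (99.7%) received a symbol.

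Log2 ratios were taken of FPKM + 0.1 among genes listed in all 4 libraries, with a cutoff of 0.5. Counting intervals (95%) are exact Poisson for reads and Clopper-Pearson for the ratio of rounded reads per library total. They do not cover the spread between mice, and at the 5 to 24 reads of Penk they span more than 2 log2 units. Computations used Python 3.11.15 (pandas 2.3.3, NumPy 2.4.6, SciPy 1.17.1), tested on simulated data, and edgeR 4.0.16 in R 4.3.3 for TMM scaling only. No differential expression test was run, since each group is 1 library. The genes and gene lists were chosen with earlier results of these data known.

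Named were all 9 neuropeptide genes and their listed receptors. From the processing, granin and other neuropeptide lists came the 3 highest by mean FPKM and up to 4 genes beyond both WT libraries with a mean of at least 20 reads, and from marker lists up to 4 by mean FPKM plus defining markers at 0. For Tac1 the 5 nearest profiles were named. Genes outside this rule (Slc5a7, Slc18a3, Chat, Scn10a, Scn11a, Elavl4, Snap25, Trpv1, Calcb, P2rx3, Piezo2, Mrgprd, Trpa1 and Prdm12) were chosen after their values were seen. One item that the rule for marker lists takes in is not reported here. Alternatives tried were other pseudocounts, a filter on FPKM, median centring, count scalings, other cutoffs and the mean of both WT libraries as control.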

Additional observations from a re-analysis of the deposited data

How the results depend on the processing

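Of 76 recomputed counts of neuropeptide genes past the cutoff or beyond both WT libraries, 67 stayed within 1.5 times the reported count and 9 did not. With a cutoff of 1 the count fell to 1 of 8 for the library labelled TRKC+/- against WT_1 (Tac1) and against WT_2 (Penk). It was also 1 for WT_1 against WT_2 (Penk) and for AdNTF3-Tg against the library labelled TRKC+/- (Tac1). It fell to 0 for AdNTF3-Tg against WT_2 and for the library labelled TRKC+/- beyond both WT libraries. Of all genes, 2.52% to 3.88% passed in these pairs and 0.884% beyond both. For AdNTF3-Tg against WT_2 the count was 1, Tac1, with a pseudocount of 1 FPKM (3.80% of all genes). It was again Tac1 alone when the counting interval also had to exclude 0 (5.05%). With the mean of both WT libraries as control it was 1, Penk, now lower (11.0%). Of 320 recomputed log2 ratios of single genes, 286 moved by less than 0.1 and 8 turned sign, all 8 with the mean of both WT libraries as control (Npy, Gal, Vip, Adcyap1 and Penk). The reported value had been past the cutoff in 2 of the 8, both of Penk: -0.66 for the library labelled TRKC+/- against WT_1 became 0.0220, under the cutoff, and 0.58 for AdNTF3-Tg against WT_2 became -0.77. Tac1 lower and Sst higher in the library labelled TRKC+/- kept that direction under each alternative run. Depth limits Tac1, Sst and Penk, and no alternative replaces the missing replicates. No paired analysis was possible because each group is 1 library.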
